A study of Rattus norvegicus with 42 samples.

Results

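The effect of middle cerebral artery occlusion (MCAO) on blood gene expression was examined in rats that received no tissue plasminogen activator (tPA). The comparison holds 24 of the 42 arrays of the series: 12 rats with MCAO against 12 untreated controls, each array being the whole blood of 1 male Sprague-Dawley rat (mean age 2.4 months). The 12 rats with MCAO are 6 with reperfused-MCAO, in which a suture blocked the artery for 2 hours and was then withdrawn for 22 hours, and 6 with permanent-MCAO, in which the suture stayed for 24 hours. The 12 controls are 6 rats that had anesthesia and no MCAO, and 6 naive rats. MCAO was made under isoflurane, so rats with MCAO had also been anesthetised. Blood was drawn by cardiac puncture at 24 hours under 3% isoflurane. No group had the operation without the occlusion, so surgery and ischemia cannot be told apart. Members were taken by their titles and all 31042 probe sets other than array controls were tested.

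Whole blood holds neutrophils, monocytes, lymphocytes, platelets and red cell precursors, and after a stroke the brain is known to alter these cells through cytokines, stress hormones and sympathetic nerves. Cholesterol is made in most cells by a chain of enzymes under the transcription factor SREBP-2, whose activity falls when a cell holds much sterol. Lipids that a cell takes up or stores are kept in droplets coated by perilipins, or passed through lysosomes. In whole blood, fewer cells of a type and less RNA per cell cannot be told apart.

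The pooled comparison takes the mean of both MCAO groups minus the mean of both control groups, on the log2 scale. A probe set was called at an adjusted p of at most 0.05 (limma, Benjamini-Hochberg over all probe sets) with a fold of at least 1.2. There were 1499 probe sets differentially regulated, 4.83% of those tested. Of these, 947 were higher in MCAO (3.05%) and 552 were lower (1.78%), so that 63.2% of the called probe sets were higher. Without permanent-MCAO replicate 4 the lower calls were 363, and with probe sets under log2 4 left out they were 894, with 56.9% of calls higher. With the hybridization control level of each array as a covariate 2130 were called and 51.8% of them were higher. The thresholds of the study, an unadjusted p of at most 0.05 with the same fold, gave 3916 probe sets (12.6%), of which 2045 were higher (6.59%) and 1871 lower (6.03%). With 1 probe set per gene, 916 of 14217 genes were called (6.44%), 575 higher (4.04%) and 341 lower (2.4%), and the median difference over those genes was -0.0102. Of the 1499 called probe sets, 1405 were among the 13190 with a mean of at least log2 4. Dim probe sets were thus seldom called, and the share of all genes is a low mark for lists of brighter genes. The mean log2 level of the hybridization controls, RNAs added to each array, was 12.1 ± 0.252 in MCAO and 12.1 ± 0.255 in controls (SD, n = 12 each, permutation p = 0.66). Replicate arrays correlated with each other at 0.968 to 0.992.

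In 4 of the 24 arrays, genes of mast cells stood apart. The mean of the 14 basophil and mast cell genes was 4.25 to 5.3 in reperfused-MCAO replicate 6, permanent-MCAO replicates 3 and 6 and anesthesia replicate 1, and 2.74 to 3.66 in the other 20. Cma1, the mast cell chymase, was at 10.84, 8.32, 11.09 and 8.15 in these rats, and Tpsb2, a tryptase, at 9.15, 4.54, 7.67 and 4.17. The highest value in any other rat was 7.26 for Cma1 and 2.69 for Tpsb2. Without these 4 arrays 1327 probe sets were called (803 higher, 524 lower) and the median of the cholesterol enzymes described next was -0.353. Of 91 genes followed through the alternatives 86 were still called, the exceptions being Srebf2, Dgat2, Cxcl16, Cd6 and Tnnt3.

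Enzymes of cholesterol synthesis were among the genes that fell in MCAO. Of 18 measured enzymes, 5 fell (27.8%, against 6.44% of all genes called either way), 0 rose and all 18 differences were below 0, with a median of -0.357 against -0.0102 over all genes. This list was written after the values had been seen, so its count is a description. Msmo1, the sterol C4-methyl oxidase, was measured at 5.36, 6.11 and 6.66 in MCAO (lowest, median and highest log2 value of 12 rats) and at 6.57, 7.02 and 7.5 in controls. It fell by 1.12 log2 (SE 0.112, 2.18-fold, adjusted p = 3.84e-05), and 11 of the 12 rats with MCAO lay below every control. Cyp51, the lanosterol demethylase, spanned 5.19 to 6.94 in MCAO and 7.15 to 7.9 in controls, so that the groups did not overlap. It fell by 1.05 log2 (SE 0.146, 2.08-fold, adjusted p = 0.000291), and both of its probe sets were called.

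Sqle, the squalene epoxidase that is a control point of the chain, had values of 3.35, 4.2 and 4.61 in MCAO against 4.54, 5.28 and 5.67 in controls. Sqle fell by 1.04 log2 (SE 0.142, adjusted p = 0.000282). Fdft1, which makes squalene, fell by 0.85 (adjusted p = 0.00112) and Idi1, the isopentenyl diphosphate isomerase upstream of it, fell by 0.82 (adjusted p = 0.00215). For Fdft1 and for Idi1, 11 of 12 rats with MCAO were below all controls, and both probe sets of each gene were called. The other enzymes were not called. Among them Lss, the lanosterol synthase, differed by -0.44 (adjusted p = 0.103) and Dhcr7, which makes cholesterol from its last precursor, by -0.43 (adjusted p = 0.382).

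The mean level of the 18 enzymes in each rat lay between 5.03 and 5.45 in MCAO and between 5.56 and 5.96 in controls. By group it was 5.33 ± 0.0998 in reperfused-MCAO, 5.25 ± 0.116 in permanent-MCAO, 5.71 ± 0.119 after anesthesia and 5.79 ± 0.109 in naive rats (SD, n = 6 each). Both MCAO groups were therefore low and both control groups high. Msmo1 had group medians of 6.26 in reperfused-MCAO and 5.52 in permanent-MCAO, a difference of -0.69 between the group means that was not called (adjusted p = 0.479).

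**Figure D1:**
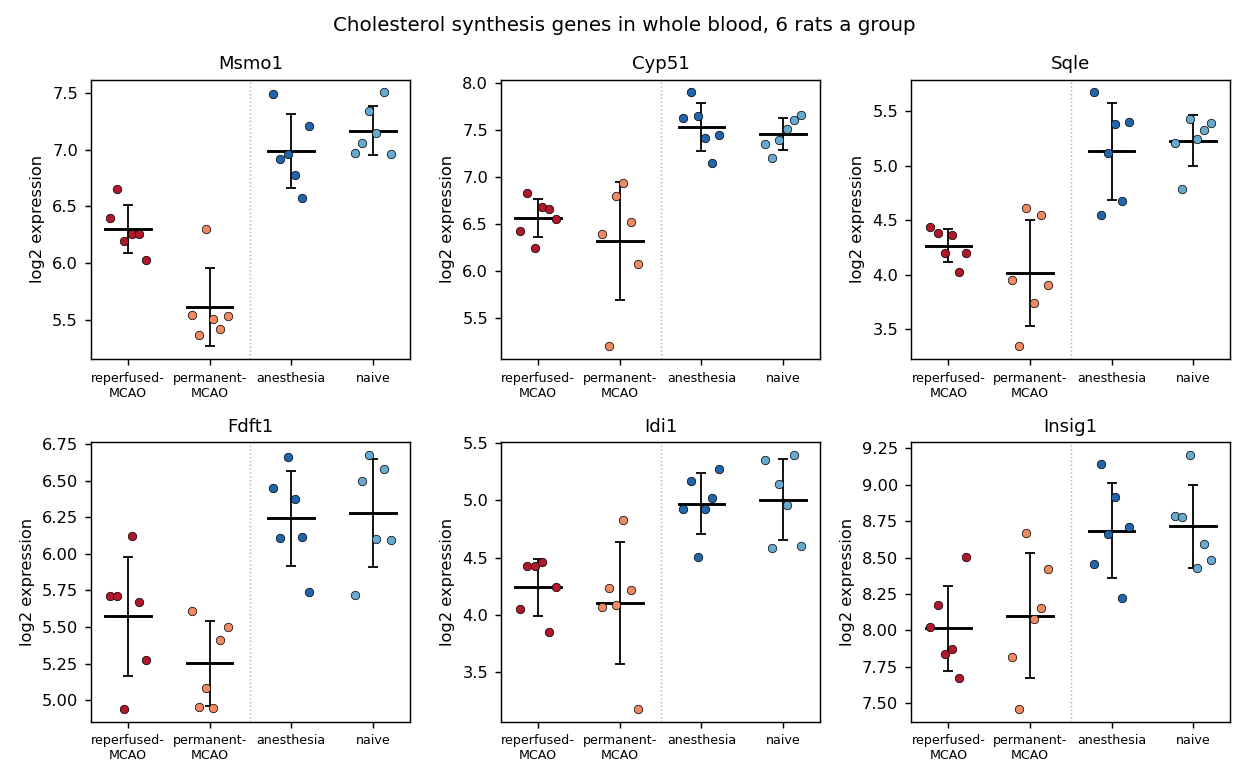
Log2 expression of 6 genes of cholesterol synthesis and its control in each rat (points), with the mean and SD of each group of 6 (bars). In all 6 genes the MCAO means lie below the anesthesia and naive means, and the Cyp51 values of MCAO, up to 6.94, end below the lowest control, 7.15.

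Genes that sense or move sterol went both ways. Insig1, the endoplasmic reticulum protein that holds SREBP in place and is itself an SREBP target, fell by 0.64 (SE 0.135, adjusted p = 0.00678). Srebf2, the gene of SREBP-2, fell by 0.37 (SE 0.1, adjusted p = 0.0356), and 11 of the 24 fits that left out 1 array lost that call. Of the 17 measured genes 3 others rose, and 29.4% of the list was called, against 6.44% of all genes. Abca1, which exports cholesterol from cells, was 1.17 higher (adjusted p = 0.00693), Soat1, which esterifies cholesterol for storage, 0.68 higher (adjusted p = 0.00311), and Npc2, which carries cholesterol out of lysosomes, 0.51 higher (adjusted p = 0.000626). For Abca1, 1 of 4 probe sets was called. Against naive rats alone Abca1 and Soat1 were not called, and Srebf2 was called against neither control group alone. The list, also written after the values were seen, had a median of -0.00662.

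The promoters of the sterol enzymes are shown because genes of this list moved together, and the CCAAT box, bound by the factor NF-Y, is known beside SREBP sites. Sequences are the 120 bases before the RefSeq transcript start on GRCr8, read 5′ to 3′ along the gene, with each match to CCAAT, or to its reverse complement ATTGG, in capitals. The Msmo1 stretch is chr16:29746993-29747112 (plus strand), the Idi1 stretch chr17:66547525-66547644 (minus strand) and the Cyp51 stretch chr4:30991573-30991692 (plus strand).
Msmo1: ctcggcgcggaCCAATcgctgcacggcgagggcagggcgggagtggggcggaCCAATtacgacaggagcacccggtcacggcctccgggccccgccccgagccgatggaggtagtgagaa
Idi1: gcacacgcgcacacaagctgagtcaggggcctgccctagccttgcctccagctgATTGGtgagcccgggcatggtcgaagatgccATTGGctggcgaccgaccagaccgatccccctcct
Cyp51: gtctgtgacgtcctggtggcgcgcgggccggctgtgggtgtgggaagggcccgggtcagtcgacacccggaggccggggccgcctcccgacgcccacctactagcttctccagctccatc
Msmo1 holds the letters on the plus strand, starting 109 and 68 bases before the transcript start, and Idi1 on the opposite strand, 66 and 35 bases before it. Cyp51 holds none in this stretch.

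Over the 250 bases before the start, 13 of the 16 enzymes of the list that had a promoter sequence held CCAAT on either strand (81.25%), against 34.02% of all 33469 promoters. Of the enzymes that fell, Msmo1 and Idi1 were among these 13, and Cyp51 and Sqle were not. Fdft1 had no promoter sequence to search. The share describes the list as written, including enzymes not called or not measured, and not the enzymes that fell. The sterol regulatory element TCACNCCAC, searched on both strands, was in 0 of the 16 and in 0.97% of all promoters. In the fatty acid and lipid droplet genes, CCAAT was in 7 of 31 promoters (22.58%). A match to letters in a window is a description of the sequence, and the windows do not reach elements further away.

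Some genes of lipid storage and fatty acid use were among the clearest rises, in a list written after the values were seen. Plin2, the perilipin that coats lipid droplets of leukocytes, was at 10.3, 11.1 and 11.8 in MCAO (lowest, median, highest) and at 8.83, 9.68 and 10.4 in controls. It was 1.41 log2 higher (SE 0.147, 2.67-fold, adjusted p = 3.84e-05), and 11 of 12 rats with MCAO exceeded every control. Cpt1a, which admits long-chain fatty acids to mitochondria, ranged from 8.21 to 8.79 in MCAO and from 5.97 to 8.33 in controls. The rats with MCAO sat in a narrow band at the top of the controls, and the difference was 1.13 (SE 0.188, adjusted p = 0.00121).

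Angptl4, a secreted inhibitor of lipoprotein lipase, was near the floor in every control (2.14 to 2.23) and spanned 2.32 to 4.55 in MCAO, so that the size of its rise (1.33, adjusted p = 0.000599) is bounded by that floor. Dgat1 and Dgat2, the enzymes of the last step of triglyceride synthesis, were 0.84 (adjusted p = 0.00269) and 1.31 higher (adjusted p = 0.0279). The Dgat2 call was lost in 5 of 24 fits without 1 array. These 5 were the members called of 34 measured fatty acid and lipid droplet genes (14.7%, against 6.44% of all genes called either way), and 0 fell. Of these 5, 4 were among the 22 with a mean of at least log2 4. The list as a whole had a median of -0.0137, with 12 differences above 0 and 22 below. The lowest difference was -1.05 and was not called. Against naive rats alone Cpt1a, Dgat1 and Dgat2 were not called. Cd36, a fatty acid receptor, differed by -0.52 (adjusted p = 0.338), and Hilpda, a droplet protein that hypoxia induces, by -0.01 (adjusted p = 0.973).

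**Figure D2:**
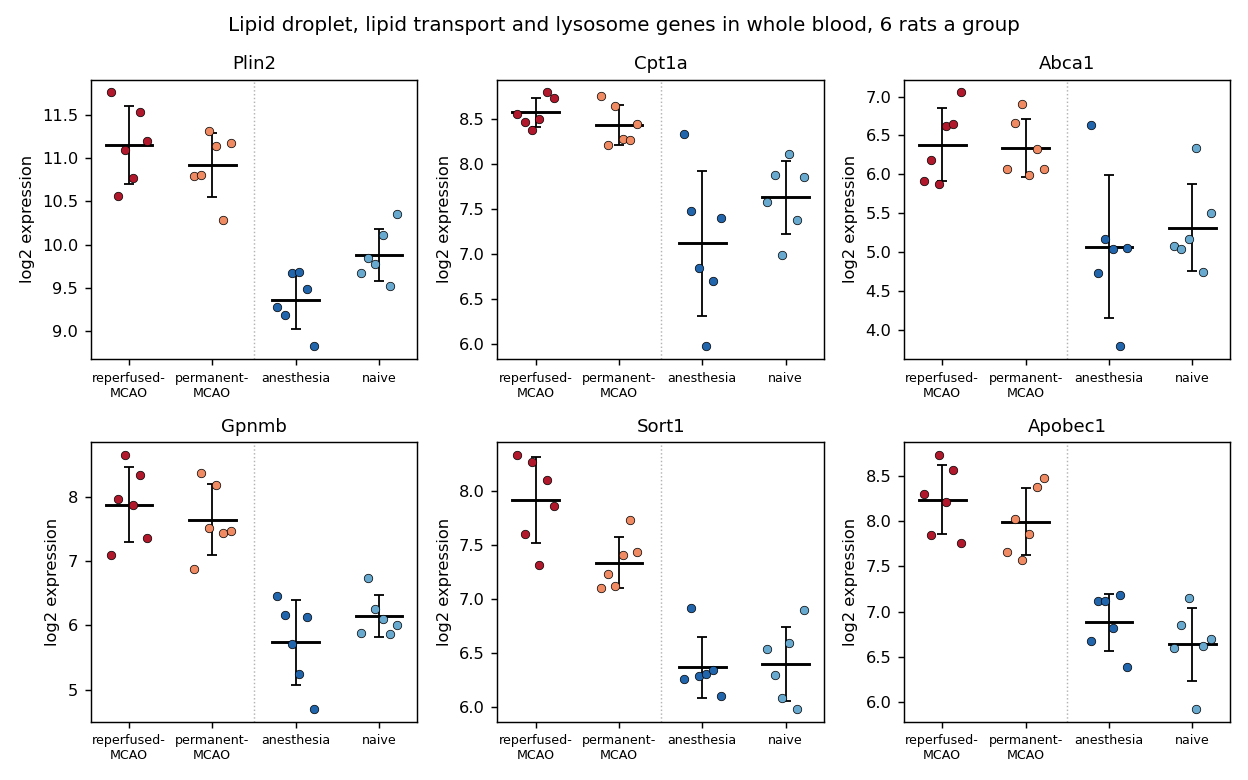
Log2 expression of 6 genes of lipid droplets, fatty acid entry, sterol export, lysosomes and lipoprotein handling in each rat (points), with the mean and SD of each group of 6 (bars). Gpnmb, Sort1 and Apobec1 do not overlap between the 12 rats with MCAO and the 12 controls.

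In 20 probe sets (0.0644%) the 12 rats with MCAO and the 12 controls did not overlap, 15 of them higher (0.0483%) and 5 lower (0.0161%). Gpnmb, a lysosome-linked glycoprotein of macrophages, lay at 6.88, 7.69 and 8.64 in MCAO and at 4.7, 6.05 and 6.74 in controls, and was 1.82 higher (SE 0.217, 3.53-fold, adjusted p = 8.67e-05). Sort1, the sorting receptor sortilin, spanned 7.1 to 8.33 in MCAO and 5.98 to 6.92 in controls (difference 1.24, SE 0.128, adjusted p = 3.84e-05). Apobec1, the enzyme that edits apolipoprotein B mRNA, spanned 7.57 to 8.73 against 5.93 to 7.18 (difference 1.35, SE 0.147, adjusted p = 6.05e-05). In these genes the lowest rat with MCAO stood above the highest control.

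Ggt5, a gamma-glutamyl transferase that converts leukotriene C4, did the same at 7.84 to 8.99 against 6.36 to 7.68 (difference 1.34, adjusted p = 6.05e-05). Alox5ap, which presents arachidonic acid to 5-lipoxygenase in leukotriene synthesis, had medians of 8.7 in MCAO and 7.35 in controls and a lowest rat with MCAO at 8.12 against a highest control at 8.09 (difference 1.33, adjusted p = 0.000324). Gpt2, the mitochondrial alanine transaminase, spanned 7.4 to 8.66 against 6.06 to 7.32 (difference 1.21, adjusted p = 0.000282). Leukotrienes are lipid mediators of leukocytes, and 2 of these genes belong to their synthesis and processing.

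With 1 probe set per gene and a mean of at least log2 4, the largest rises reached 2.13 log2. Over all probe sets the largest was 2.18. Pdzph1, whose function in blood is not well described, was 2.13 higher (SE 0.32, adjusted p = 0.000537), with medians of 7.14 in MCAO and 4.85 in controls. Vcan, the proteoglycan versican that monocytes make, was at 6.94, 8.51 and 9.08 in MCAO and 4.99, 6.49 and 6.96 in controls. It was 2.01 higher (SE 0.268, 4.04-fold, adjusted p = 0.000241), all 5 of its probe sets were called, and 11 of 12 rats with MCAO exceeded every control. Cdkn1a, the cell cycle inhibitor p21, was 1.90 higher (adjusted p = 0.000537) and Fetub, a protease inhibitor of the cystatin family, 1.91 higher (adjusted p = 0.000629). Cd33, an inhibitory sialic acid receptor of myeloid cells, was 1.81 higher (adjusted p = 0.000581), with 6 of 12 rats above all controls. Arap3 was 1.76 higher (adjusted p = 0.000469). Il22ra2, the soluble receptor that blocks interleukin 22, was 1.74 higher (adjusted p = 0.00105), and Agrn, the proteoglycan agrin, 1.71 higher (adjusted p = 0.00278). Fgf12 rose by 1.81 (adjusted p = 0.0121) but was not called against naive rats alone. The 2 other genes in the 12 with the largest rise carry only locus names.

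Among the falls, Lpal2 was lowest, at 2.86, 4.07 and 5.51 in MCAO and 4.76, 6.22 and 7.81 in controls, a fall of 2.10 that left 8 of 12 rats below every control (SE 0.396, adjusted p = 0.00313). Rnase6, an antimicrobial ribonuclease of monocytes and other leukocytes, spanned 6.67 to 8.76 in MCAO and 8.67 to 9.59 in controls. It fell by 1.2 (SE 0.19, adjusted p = 0.000811), with 11 of 12 rats below all controls. Havcr1, the receptor TIM-1 for phosphatidylserine, fell by 1.11 (adjusted p = 0.00436). Nrp1, a receptor for semaphorins and VEGF, fell by 1.12 (adjusted p = 0.012) and Akt2, a kinase of insulin signaling, fell by 1.05 in 1 of its 4 probe sets (adjusted p = 0.00445). Fcgbp, Mex3b and Tmem144 fell by 1.24, 1.14 and 1.11 (adjusted p = 0.00367, 0.0222 and 0.00882). The chemokine Cxcl16 fell by 1.15 (adjusted p = 0.0388) and Abcb10, a mitochondrial transporter of red cell precursors, fell by 1.07 (adjusted p = 0.0405). Each of the last pair of calls was lost in 16 of 24 fits without 1 array. Against naive rats alone Fcgbp, Nrp1, Akt2, Tmem144 and Abcb10 were not called, and against anesthesia alone Havcr1 was not. Mex3b and Cxcl16 were called against neither control group alone.

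Most receptors and adaptors of myeloid cells rose. Of 22 measured members, 18 rose (81.8%, against 6.44% of all genes called either way) and 0 fell. All 22 differences were above 0, with a median of 0.666. The list was also written after the values were seen. Lilrb4, an inhibitory receptor, was at 11.41, 11.97 and 12.43 in MCAO and 10.54, 11.01 and 11.66 in controls (difference 0.92, SE 0.108, adjusted p = 8.67e-05). Ptafr, the receptor for platelet activating factor, was 1.07 higher (SE 0.149, adjusted p = 0.000291), and Sirpa, which binds CD47, 0.68 higher (SE 0.093, adjusted p = 0.000282). For Sirpa and for Ptafr, 10 of 12 rats with MCAO exceeded all controls.

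The signaling adaptors shared by such receptors moved the same way. Tyrobp rose by 0.60 (adjusted p = 0.00138) and Fcer1g by 0.43 (adjusted p = 0.00129). The kinases Fgr, Fes and Lyn rose by 0.65, 0.99 and 0.70 (adjusted p = 0.00097, 0.000979 and 0.00446), and Syk differed by 0.46 (adjusted p = 0.0502, not called). Clec7a, the receptor dectin-1 for fungal glucans, rose by 0.79 (adjusted p = 0.00367), and Igsf6 by 0.68 (adjusted p = 0.000416). Against naive rats alone Tyrobp, Fcer1g, Lyn and Clec7a were not called. By group the mean of the list was 9.96 ± 0.239 in reperfused-MCAO, 9.69 ± 0.178 in permanent-MCAO, 9.04 ± 0.186 after anesthesia and 9.27 ± 0.195 in naive rats (SD, n = 6). Single rats overlapped, from 9.42 to 10.3 in MCAO and from 8.84 to 9.6 in controls.

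Lysosome genes were higher in 12 of 34 measured members (35.3%, against 6.44% of all genes called either way) and lower in 0. The list, with a median of 0.273, was written after the values were seen. Cd63, a membrane protein of lysosomes and granules, was at 7.83, 8.68 and 9.42 in MCAO and 6.87, 7.43 and 8.37 in controls (difference 1.10, adjusted p = 0.000879). The proteases Ctsf and Ctsh were 0.86 and 0.64 higher (adjusted p = 0.000665 and 0.000758), Lamp2 0.47 higher (adjusted p = 0.00168) and Grn, progranulin, 0.58 higher (adjusted p = 0.00379). Against naive rats alone Ctsh, Lamp2 and Grn were not called. Cathepsins B, D and L were not called, with differences of -0.02, 0.13 and -0.02 (adjusted p = 0.957, 0.802 and 0.967). Tfeb, the transcription factor of lysosome genes, differed by 0.07 (adjusted p = 0.874).

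Neutrophil genes rose in part. Of 18 receptor and survival genes 7 rose (38.9%, median 0.345), and of 13 granule genes 3 rose (23.1%, median 0.523), with 0 lower in either list. Of all genes 6.44% were called either way. Csf3r, the receptor for granulocyte colony-stimulating factor, was at 9.1, 10.1 and 11.7 in MCAO and 8.2, 8.89 and 10.5 in controls (difference 1.10, SE 0.237, adjusted p = 0.00821). Il1r2, the decoy receptor of interleukin 1, was 1.63 higher (SE 0.285, adjusted p = 0.00168), Cxcr2, the chemokine receptor that brings neutrophils to tissue, 1.27 higher (adjusted p = 0.0043), and Ncf4, a subunit of the phagocyte oxidase, 0.94 higher (adjusted p = 0.000324). Slpi, which blocks neutrophil elastase, and Chi3l1, a chitinase-like granule protein, were 1.28 and 0.87 higher (adjusted p = 0.00144 and 0.00044). Against naive rats alone Csf3r, Il1r2 and Cxcr2 were not called. The calgranulins S100a8 and S100a9, among the most abundant neutrophil transcripts, differed by 0.29 and 0.39 and were not called (adjusted p = 0.319 and 0.243). Mmp9, the gelatinase of neutrophil granules, was spread from 6.24 to 9.98 in MCAO (difference 0.99, adjusted p = 0.188). The granule genes Lcn2 and Camp had differences of -1.45 and -0.96 and were not called (adjusted p = 0.196 and 0.283). Of 22 monocyte genes 3 rose (13.6%), Vcan, Fcgr1a and Lgals3, and the markers Cd14 and Csf1r differed by 0.72 and 0.24 (adjusted p = 0.0912 and 0.349).

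Genes of cytotoxic lymphocytes rose in 10 of 21 measured members (47.6%, against 6.44% of all genes called either way) and fell in 0 (median 0.470). Gzmk, granzyme K, was at 10.6, 11.1 and 11.9 in MCAO and 9.63, 10.3 and 11.1 in controls (difference 0.94, SE 0.145, adjusted p = 0.000659). Klrg1, an inhibitory receptor of mature NK and effector T cells, was 1.18 higher (adjusted p = 0.00526), Gzmb, granzyme B, 0.87 higher (adjusted p = 0.024), Nkg7 0.60 higher (adjusted p = 0.0104) and the chemokine Ccl5 0.53 higher (adjusted p = 0.00544). Klrd1, the CD94 chain of NK receptors, differed by -0.01 (adjusted p = 0.976). Against anesthesia alone Klrg1, Gzmb and Nkg7 were not called, and Gzmb was not called against naive rats alone either.

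T cell genes went the opposite way, with 5 of 26 lower (19.2%, against 6.44% of all genes called either way) and 0 higher. Of the differences 25 were below 0 (median -0.272). This list also moved with the choice of control: its median was -0.117 against anesthesia and -0.357 against naive rats, and -0.246 between anesthesia and naive rats. The transcription factors Lef1 and Bcl11b fell by 0.63 and 0.60 (adjusted p = 0.00925 and 0.00583), and the receptors Cd5 and Cd6 fell by 0.55 and 0.47 (adjusted p = 0.0221 and 0.0269). Lef1 lay at 10.04, 10.98 and 11.45 in MCAO and 11.19, 11.66 and 11.9 in controls, and 7 of 12 rats with MCAO were below every control. Against anesthesia alone Lef1, Bcl11b, Cd5 and Cd6 were not called. The receptor chain Cd3e differed by -0.26 (adjusted p = 0.214). All 14 B cell genes had differences below 0 (median -0.33), and 0 was called (Benjamini-Hochberg, limma), with a median of -0.238 against anesthesia and -0.413 against naive rats. Of 8 MHC class II genes 7 were below 0, with a median of -0.254 and 0 called.

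Platelet genes rose in 9 of 23 members (39.1%, against 6.44% of all genes called either way) and fell in 0. Of the differences 22 were above 0 (median 0.626). Tubb1, the platelet beta-tubulin, was at 12.6, 13.2 and 13.5 in MCAO and 12.4, 12.7 and 12.8 in controls (difference 0.45, SE 0.0941, adjusted p = 0.00678). Nrgn rose by 0.83 (adjusted p = 0.00709), Alox12, the platelet lipoxygenase, by 0.92 (adjusted p = 0.0112) and Itgb3, the beta chain of the fibrinogen receptor, by 0.63 (adjusted p = 0.0169). Pf4, platelet factor 4, differed by 0.19 (adjusted p = 0.323). Against anesthesia alone Tubb1, Nrgn, Alox12 and Itgb3 were not called. The list moved with the choice of control: its median was 0.369 against anesthesia and 0.883 against naive rats, and its median difference between anesthesia and naive rats was 0.443. Of 33 erythroid genes (3.03% called) only Cpox, an enzyme of heme synthesis, was called, which fell by 0.72 (adjusted p = 0.02), and Alas2 differed by -0.02 (adjusted p = 0.681). Alas2 lay at 14.43 to 14.63 in all rats, near the highest value of these arrays (15.4), where a change can go unseen.

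**Figure D3:**
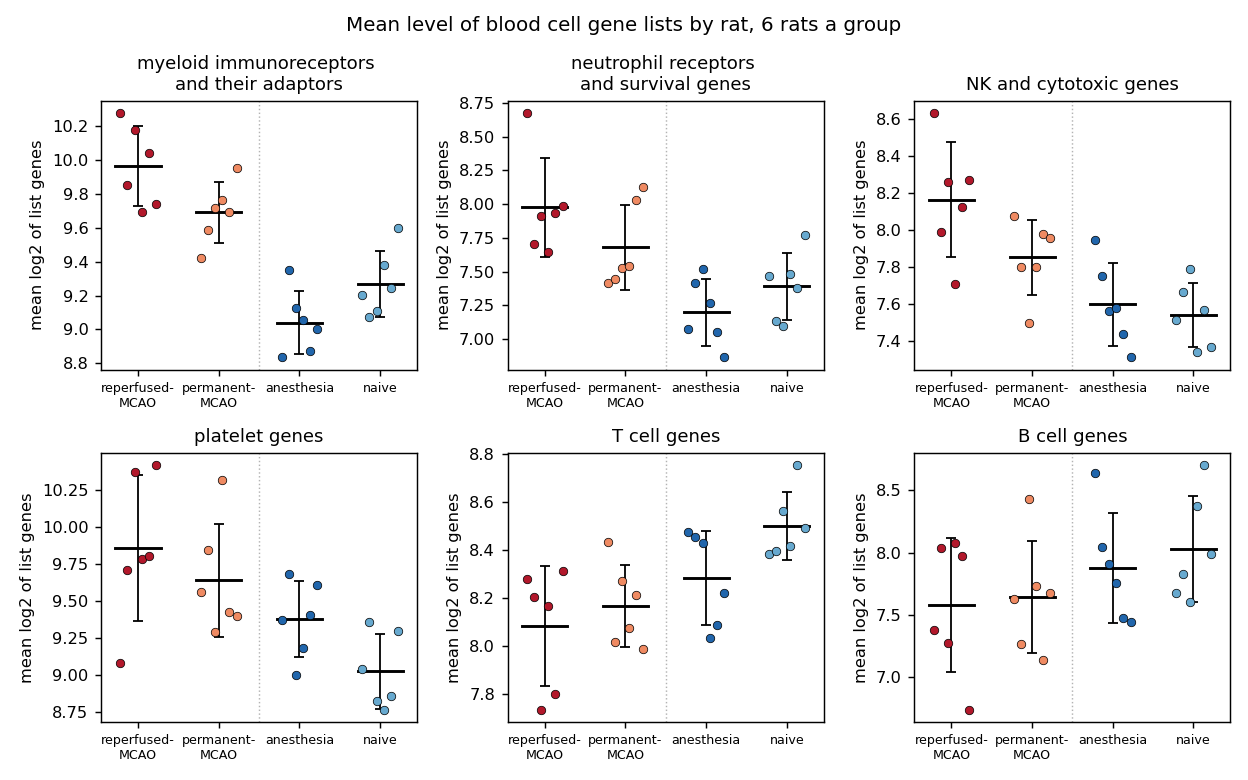
Mean log2 level of the genes of 6 blood cell lists in each rat (points), with the mean and SD of each group of 6 (bars). The myeloid, neutrophil, cytotoxic and platelet means are higher in both MCAO groups than in both control groups and the T and B cell means are lower, while single rats of MCAO and controls overlap in every panel.

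The mean of the 18 neutrophil receptor genes in each rat ranged from 7.41 to 8.67 in MCAO and from 6.87 to 7.77 in controls, that of the 22 monocyte genes from 8.49 to 8.97 and from 8.07 to 8.73, and that of the 26 T cell genes from 7.73 to 8.43 and from 8.03 to 8.75. These cell levels differed between the same groups of rats as the called sterol, lipid, receptor and lysosome genes. The part of the cell levels in those differences was not tested.

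Markers of other tissues were low or near the background share. Heart muscle genes Myh6 and Tnnt2 and the neuronal gene Snap25 stayed between 2.23 and 2.72 in all 24 rats, near the floor of these values. In the endothelial list 1 of 10 members was called, Vwf (0.82 higher, adjusted p = 0.0169), which platelets also carry. Among brain genes 1 of 13 was called, Mbp (0.69 higher, adjusted p = 0.00583), a gene of which blood cells make a form of their own. In the muscle list Tnnt3 was 0.36 higher (adjusted p = 0.0484), a call lost in 21 of 24 fits without 1 array. The shares called, 10%, 7.69% and 8.33%, stand beside 6.44% of all genes. Vwf and Tnnt3 were called against neither control group alone, and Mbp was not called against anesthesia alone.

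Cytokine, receptor and stress genes rose in part. Some genes stand in several lists, so the counts of different lists are not separate results. Of 31 genes of interleukin 1, TNF and Toll-like receptor signaling 10 rose and 0 fell (32.3%, median 0.254). Of all genes 6.44% were called either way. Il1b, interleukin 1 beta, was at 10.58, 11.27 and 11.75 in MCAO and 9.71, 10.24 and 11.03 in controls (difference 1.03, SE 0.138, adjusted p = 0.000262). Ly96, the partner of Toll-like receptor 4, rose by 0.55 (adjusted p = 0.000469), the TNF receptor Tnfrsf1a by 0.79 (adjusted p = 0.00151) and Tlr2 by 0.89 (adjusted p = 0.00613). Among 19 genes that glucocorticoids induce 5 rose and 0 fell (26.3%, median 0.245). Fkbp5, a chaperone of the glucocorticoid receptor, was at 6.87, 7.59 and 8.79 in MCAO and 6.38, 6.76 and 7.24 in controls (difference 0.86, adjusted p = 0.00335), and Sgk1 was 0.61 higher (adjusted p = 0.00509), with 11 of 12 rats above every control. Genes of hypoxia and glycolysis rose in 5 of 28 (17.9%) and fell in 0 (median 0.157). Among them P4ha1, a collagen prolyl hydroxylase, rose by 1.14 (adjusted p = 0.00147) and Ldha by 0.37 (adjusted p = 0.00509). Against naive rats alone Ly96, Tlr2, Sgk1, P4ha1 and Ldha were not called.

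In smaller numbers, 6 of 23 immediate early genes (26.1%) and 5 of 20 matrix proteases and inhibitors (25%) rose. So did 5 of 23 coagulation and complement genes (21.7%) and 2 of 17 heat shock genes (11.8%), with 0 lower in each list. Of all genes 6.44% were called either way. Cfd, complement factor D, was 1.65 higher (adjusted p = 0.000537), and Thbd, thrombomodulin, 0.88 higher (adjusted p = 0.00216). The clock genes Nfil3 and Nr1d2, both transcriptional repressors, were called in opposite directions. Nfil3 rose by 0.92 (adjusted p = 0.00344) and Nr1d2 fell by 0.78 (adjusted p = 0.00955), and the other clock genes were not called (10.5% of the list called). Nfil3 was not called against naive rats alone, nor Nr1d2 against anesthesia alone. Antioxidant and iron genes rose in 4 of 18 and fell in 1 (27.8% called), and chemokines and their receptors rose in 4 of 26 and fell in 2 (23.1%). Interferon-induced genes rose in 2 of 24 and fell in 1 (12.5%), and 1 of 6 eosinophil genes rose (16.7%). The heat shock, interferon and eosinophil shares rest on few called genes. Of 33 oxidative phosphorylation genes 2 were lower and 0 higher (6.06%, near the 6.44% of all genes), with a median of -0.126 and 30 differences below 0.

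No member was called among 35 cell division, 24 ribosomal protein, 14 basophil and mast cell and 9 dendritic cell genes, whose medians were -0.0242, -0.0555, 0.00502 and 0.00721. Over the 29 lists other than those written after the values were seen, 559 genes were measured, each counted once. Of these, 77 were higher (13.8%, against 4.04% of all genes) and 13 lower (2.33%, against 2.4%). The shares of all genes include dim genes, which were seldom called, so they are a low mark for lists of brighter genes. Of 23 measured genes in the study's list of gene abbreviations, 14 rose and 0 fell, among them Xdh, xanthine dehydrogenase (0.84 higher, adjusted p = 0.000165), and the Notch ligand Jag1 (1.16 higher, adjusted p = 0.00296). The study picked most of them on samples of this series, so their direction is not independent evidence.

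**Figure D4:**
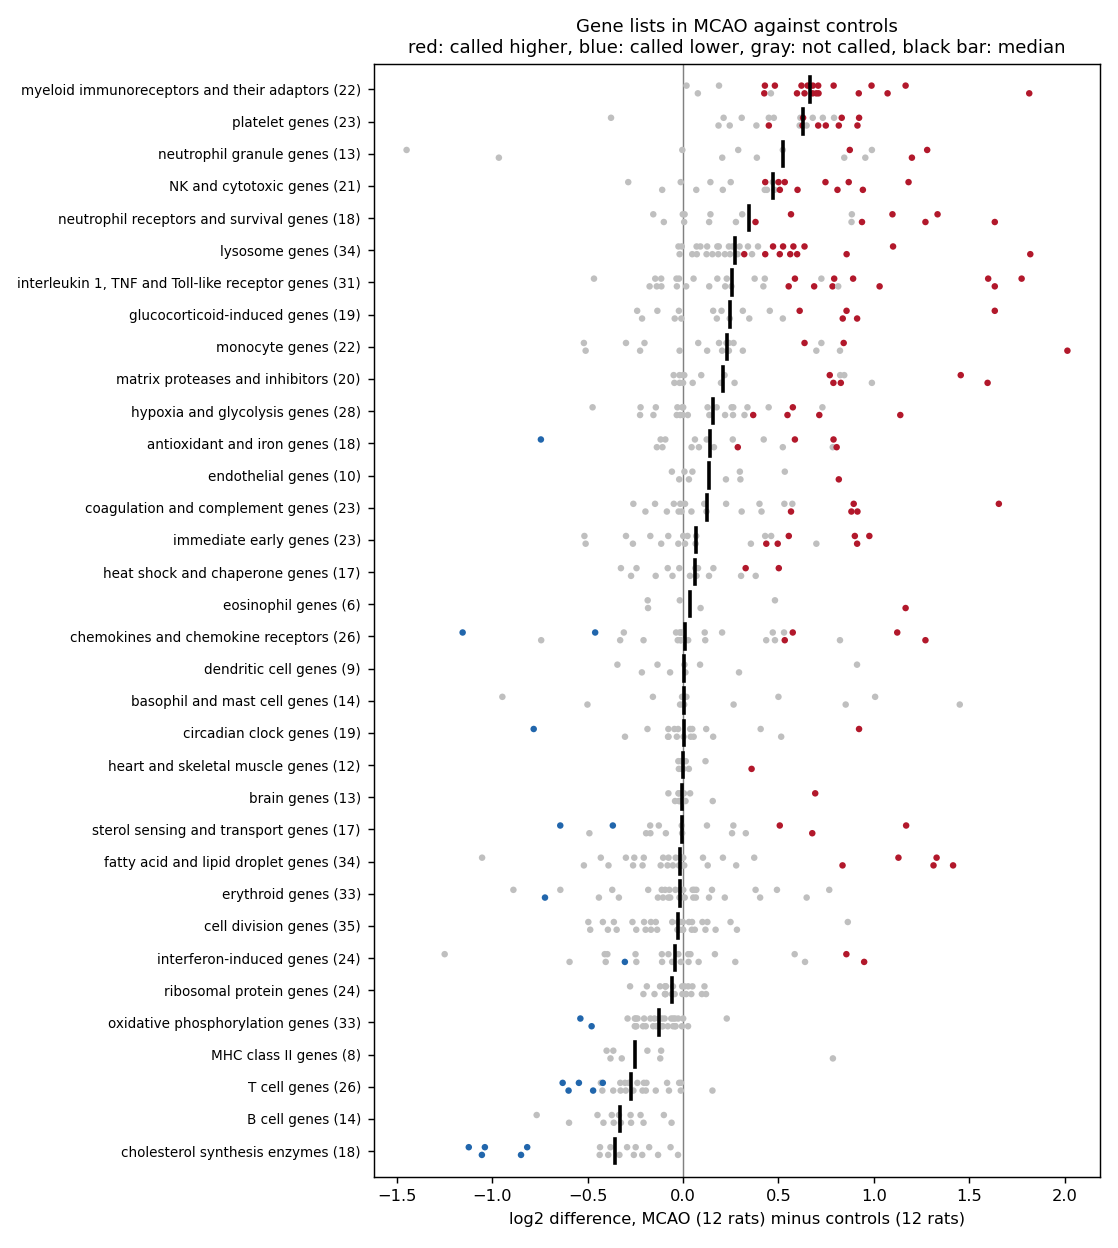
Log2 difference between MCAO and controls for each measured gene (points) of 34 lists, ordered by their median (black bars), with the number of genes in brackets. Red points were called higher, blue points lower and gray points were not called. The cholesterol synthesis enzymes, at a median of -0.357, lie lowest, but that list was written after the values were seen. The sterol transport, lipid droplet, lysosome and myeloid receptor lists were also written then. The places of all these lists in the order are a description and not a test.

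The 2 control groups did not differ by any called probe set (limma, 0 of 31042, smallest adjusted p 0.474), while 1670 had an unadjusted p under 0.05 and the study's thresholds gave 1309 (4.22%). Against anesthesia alone 1051 probe sets were called (3.39%), and against naive rats alone 471 (1.52%). The 2 kinds of MCAO differed in 1 probe set (0.00322%), of Mapk7, a kinase of the MAP kinase family, whose difference, permanent minus reperfused, was -0.53 at a signal near the floor (adjusted p = 0.0201). At an unadjusted p under 0.05 there were 3124, and 976 by the study's thresholds (3.14%). Set against the pooled controls, reperfused-MCAO gave 1382 called probe sets (4.45%) and permanent-MCAO 143 (0.461%). These counts share their controls and do not show that the kinds of MCAO differ, which the direct comparison tests. Of the 91 called genes whose values were followed through the alternatives, 72 were also called against anesthesia alone, 58 against naive rats alone, 85 in reperfused-MCAO alone and 36 in permanent-MCAO alone, and 0 turned direction. With the hybridization control level as a covariate 91 of 91 were called.

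The pooled effect was also read in pairs of comparisons that share no rat, with the study's thresholds for 12 arrays (p at most 0.01, fold at least 1.2). Reperfused-MCAO against naive rats gave 1488 probe sets (4.79%), of which 1399 (94%) had the same sign in permanent-MCAO against anesthesia, where all probe sets agreed in sign in 57.7%. Of these, 371 were called in permanent-MCAO against anesthesia with the same sign and 0 with the opposite. That second comparison gave 862 probe sets (2.78%), of which 830 (96.3%) had the same sign in the first. With the controls exchanged, reperfused-MCAO against anesthesia gave 1864 (6%), and 1545 (82.9%) had the same sign in permanent-MCAO against naive rats, against 49% of all probe sets. There, 242 were called with the same sign and 1 with the opposite. In that direction permanent-MCAO against naive rats gave 1100 (3.54%), and 972 (88.4%) had the same sign in reperfused-MCAO against anesthesia.

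**Figure D5:**
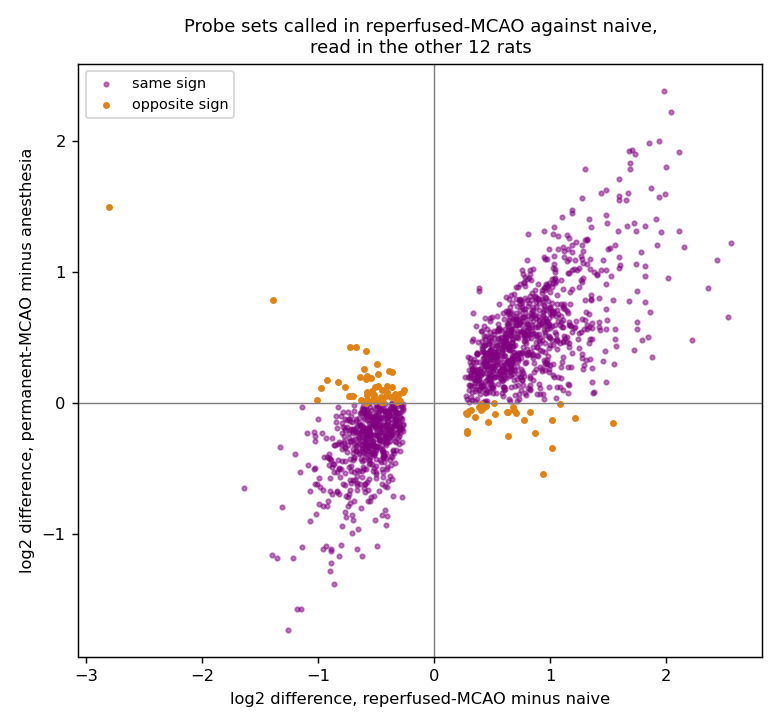
Log2 differences of the 1488 probe sets called in reperfused-MCAO against naive rats (x axis) and the same probe sets in permanent-MCAO against anesthesia (y axis), which share no rat. Points of the same sign in both (1399) fill the upper right and lower left, and probe sets under the fold threshold on the x axis were not drawn.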

How the data were processed

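Expression was measured in whole blood with Affymetrix rat genome arrays. The authors normalized the scans by GC-RMA in Partek software and deposited the result on the log2 scale. Aligner and genome build do not apply to these arrays, and scan dates are not given in the sources used here. Probe sets were named through the platform annotation and the RefSeq gene table of GRCr8: of 31042 tested, 20826 had 1 symbol, 436 several and 9780 none, and only the first kind is named. The 57 array control probe sets were left out. The number of columns of other series was 0.

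A limma 3.58.1 model (R 4.3.3, statmod 1.5.0) held 1 mean for each of the 4 groups (6 rats each, 20 residual degrees of freedom). The pooled contrast and the contrasts with single groups were taken from it, with moderated statistics, p-values in both directions and Benjamini-Hochberg adjustment over all probe sets. Differences are on the log2 scale. A gene with several probe sets is represented by the one with the highest mean over the 24 arrays. Lists are described by counts and medians, with no test of the list. The hybridization control level is the mean of 14 control probe sets per array and was compared by a two-sided permutation test (1e+05 resamples). Precision is limited by 12 rats on each side, and each rat is 1 replicate. The fit was run on simulated data with planted changes and noise drawn independently for each probe set. That run checks the calculation and cannot show how calls behave where genes move together. Figures were drawn with matplotlib 3.10.9 (Python 3.11.15) from tables made with pandas 2.3.3 and numpy 2.4.6.

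The comparison, the gene lists and the tests were chosen with earlier results of these data known. Genes were named by rule: the 12 largest rises and the 12 largest falls among called genes with a mean of at least log2 4, up to 4 members of each list by p, non-overlapping genes, cell markers and the genes in the study's list of abbreviations. The 5 lists on cholesterol synthesis, sterol transport, lipid droplets, lysosomes and myeloid receptors, and other genes named from them or as members not called, were added after the values had been seen. Promoter sequences are RefSeq's for GRCr8.

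Alternatives were a fit with 2 means, the replicate number as a block, an intensity trend, array weights, centred or quantile-scaled arrays, dim probe sets left out, the hybridization control level as a covariate, the methods' t-test, a fold of 1.5, single control or MCAO groups, other summaries of lists, omission of each array and, chosen after seeing the data, omission of the 4 arrays high in mast cell genes. The 18 arrays with tPA were not used here.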

Additional observations from a re-analysis of the deposited data

Results flagged for a closer look

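In 368 groups of 6 rats examined, for 91 genes and the hybridization control level, 22 held 1 rat farther from the others than Dixon's test allows. Chance flags about 1 in 20 groups, and no explanation was tested. Of these 22, naive replicate 6 accounted for 6, all of them high: Dgat2 at 7.83 (others 5.79 to 6.53), Cdkn1a at 5.87, Fes at 9, Clec7a at 10.2, Itgb3 at 11.7 and Tlr2 at 9.38. In these 6 genes, which rose in MCAO, that control was nearer to the MCAO values than the other naive rats were. Other control rats were high for Srebf2 at 10.1 (naive replicate 5), Fgf12 at 4.66 (naive replicate 4), Sort1 at 6.92 and Jag1 at 5.71 (both anesthesia replicate 2). Low controls were Sqle at 4.79 (naive replicate 2), Agrn at 4.28 (anesthesia replicate 6), and, in anesthesia replicate 1, Vcan at 4.99, Akt2 at 8.53 and the hybridization control level at 11.8 (others 12.2 to 12.4).

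Among rats with MCAO, permanent-MCAO replicate 3 stood high for Msmo1 at 6.3, where the other 5 rats spanned 5.36 to 5.54, and for Havcr1 at 5.03 (others 3.78 to 4.08). Nkg7 was high at 9.95 in permanent-MCAO replicate 1, Vwf at 9.06 in replicate 4 and Fes at 9.49 in replicate 6. Vcan was low at 6.94 in reperfused-MCAO replicate 2 and Bcl11b low at 7.34 in reperfused-MCAO replicate 3. The calls of Msmo1, Vcan, Bcl11b, Fes and Sort1 were kept in each of the 24 fits that left out 1 array.

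Mapk7 was the 1 probe set that differed between the 2 kinds of MCAO after adjustment (permanent minus reperfused -0.528), at a level near the floor of the values.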

How the results depend on the processing

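The pooled count of 1499 probe sets (947 higher, 552 lower) was 1425 with 2 means, 1483 with an intensity trend, 1517 with array weights, 1539 with centred arrays, 1526 with quantile scaling and 1296 with the methods' t-test. Leaving out dim probe sets raised the lower calls to 894 of 2072 and the hybridization control covariate to 1027 of 2130. A fold of 1.5 gave 790 (582 higher, 208 lower). Anesthesia alone as control gave 1051 (349 lower) and naive alone 471 (295 higher, 176 lower). Reperfused-MCAO alone gave 1382 and permanent-MCAO alone 143 (89 higher, 54 lower). Each of these contrasts had the mean of 1 group on 1 side, with the spread taken from the fit of all 24 arrays. Without 1 array the count ranged from 1142 to 1627, higher calls from 762 to 1025 and lower calls from 363 to 642, the lowest of each total and of the lower calls without permanent-MCAO replicate 4. Of the 91 genes followed, 85 were called in all 24 of these fits, the exceptions being Abcb10, Cd6, Cxcl16, Dgat2, Srebf2 and Tnnt3, and 0 turned direction in any setting. Replicate numbers did not pair the rats: of 36 pairs with the same number in different groups 8 had correlated deviations over 0.1, the correlations ran from -0.486 to 0.264, and 3 of 24 arrays matched their own number best. With the replicate block 1110 probe sets were called (361 lower), 182 instead of 471 against naive rats, 0 instead of 1 between the kinds of MCAO, and 85 of the 91 genes. List medians kept to within the spread between rats except NK and cytotoxic genes in reperfused-MCAO alone (0.712) and 7 lists when genes under log2 4 were left out. The cause of these changes was not tested. The number of arrays limits the precision, and genes near the floor can hide changes.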
